A study of Oryctolagus cuniculus with 3 samples.

Results

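The known long non-coding transcripts are those that the RefSeq annotation of the rabbit already listed as non-coding, as opposed to transcripts assembled from the reads. They were chosen by identifier alone, as every transcript of the deposited long non-coding table that carries a RefSeq NR_ or XR_ name. All 4291 of them were predicted models (XR_) and 0 were curated ones (NR_), out of 15335 transcripts in the table. They belonged to 3030 genes, of which 653 had more than 1 known transcript and 1 had 30.

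Cumulus-oocyte complexes, in which somatic cumulus cells surround the egg cell, were taken from the ovaries of female IRA rabbits, a name the labels do not explain. In all, 150 rabbits entered at 35 days of age, were assigned at random and lived for 4 weeks in climate rooms with different ammonia (NH3) in the air. The control group (CG) had under 3 ppm, the low ammonia group (LAC) 10 ppm and the high ammonia group (HAC) 30 ppm. There was 1 library per group, and the sources used here do not say how many animals or complexes a library stands for, so no difference below has a replicate check and no p-value is given. Every transcript has a value in FPKM, fragments scaled to transcript length and library size, in each of the 3 libraries.

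A long non-coding RNA is a transcript of some length without a recognised long reading frame. Such RNAs can act in the nucleus on nearby genes, hold proteins together as a scaffold or bind other RNAs in the cytoplasm, and many are made from promoters that also fire in the opposite direction into a coding gene. Some RNAs first listed as non-coding were later found to encode very short proteins, and in less studied genomes a coding gene whose reading frame is broken in the assembly can be listed as non-coding as well.

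Some facts of the libraries touch the values. The labels LAC and HAC are uncertain. The files of both groups hold the same gene table, headed LAC, in all 39681 rows, its highest FPKM is the one that the HAC statistics block gives, and the valid read totals of the LAC and HAC blocks are exchanged between their parts. Transcript values labelled LAC match that gene table. Coverage times length over 75 bases matched the count within 5% at 97.3% of 8638 loci, against 4.15% of 8795 for those labelled HAC. If the labels were exchanged, LAC against CG and HAC against CG would trade places and HAC against LAC would change sign. Markers of cell types also differed. In the gene table, all 14 oocyte markers found of 15 listed were lower in LAC than in CG by at least 1 on the log2(CPM + 1) scale, and their summed level was 4660 CPM (counts scaled to library size) in CG and 902 CPM in LAC. The sum of 9 granulosa and cumulus markers found of 12 was 13223 and 12989 CPM, that of 9 theca and stroma markers of 10 was 141 and 196 CPM, that of 6 endothelial markers of 6 was 49.0 and 8.08 CPM, and that of 6 macrophage markers of 6 was 52.4 and 24.2 CPM. The last 2 sums rest on 1 gene each, TEK (46.7 and 4.23 CPM) and MSR1 (47.3 and 8.20 CPM). Of the other endothelial markers all but KDR were higher in LAC, and all other macrophage markers were higher in LAC, as MRC1 with 0.73 and 8.04 CPM. The part of cell makeup in the results below was not tested, and in such bulk samples fewer cells of a type and less RNA per cell cannot be told apart. The sources used here do not say whether the values separate a gene from its antisense partner, although the protocol marked the second strand.

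Most known transcripts stayed under 1 FPKM in these complexes. In all 3 libraries 2079 of the 4291 (48.4%) were listed at 0 FPKM. At least 1 FPKM was reached by 291 transcripts in CG, 315 in LAC and 307 in HAC, by 479 (11.2%) in at least 1 library and by 154 in every library. At least 10 FPKM was reached by 40 in at least 1 library and by 15 in every one. In the assembled classes 96.0% to 99.1% of transcripts had at least 1 FPKM in some library, but those transcripts were built from these reads, so the shares are not comparable. Known transcripts were also built differently: 1 of 4291 had a single exon, against 80.0% of intronic and 78.5% of intergenic assembled transcripts, and the median known transcript had 3 exons and 960 bases. Known transcripts with 2 exons reached 1 FPKM more often (182 of 947, 19.2%) than those with 3 exons (165 of 1849, 8.92%), while the 4 length classes ranged only from 10.1% to 12.4%. Together the known transcripts carried 1.31%, 1.14% and 1.13% of the table's FPKM in CG, LAC and HAC.

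The share of known transcripts that reached 1 FPKM differed by position. Divergent transcripts started within 5 kb of the start of a coding gene on the other strand and ran away from it, with an overlap under 100 bases allowed. Of these 757 known transcripts 15.1% reached 1 FPKM, and of the 877 that otherwise overlapped a coding gene on the other strand 14.1% did. It was 28.4% of the 67 in a locus with a messenger RNA, 19.3% of the 83 that overlapped a coding gene on their own strand, 9.0% of the 1756 otherwise within 100 kb of one and 6.39% of the 751 with none within 100 kb. Divergent transcripts made up 17.6% of the known transcripts and carried 49.7%, 60.4% and 52.6% of their summed FPKM in CG, LAC and HAC. A single divergent transcript at SIRT4, described next, took up much of that sum.

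The highest known transcript was XR_001795410.1 of LOC108178668, with 2 exons and 465 bases at NC_013689.1:12269875-12270388 on the plus strand of build OryCun2.0. It started 61 bases from the start of SIRT4, a mitochondrial sirtuin, in the opposite direction, and the 2 overlap at their starts. The authors' description of the transcript also names a sirtuin-4 protein. In CG, LAC and HAC it had 449.35, 1178.54 and 685.31 FPKM. LAC was thus the highest library and CG the lowest, 2.62-fold apart (95% interval 2.56 to 2.69, counting error only), and HAC was 1.53-fold above CG (1.48 to 1.57). Its assembled locus, with 3 transcripts, differed the same way in the gene table, with 658 CPM in CG against 1839 in LAC. SIRT4 itself had 6.11 and 4.48 CPM. Without this transcript the known FPKM sums were 2003, 2008 and 1886 in CG, LAC and HAC, against 2452, 3187 and 2572 with it.

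Several of the other high transcripts carry the names of coding genes for small proteins of core cell machinery. XR_518213.2 of GNG5, which encodes a gamma subunit of heterotrimeric G proteins, had 172.74, 178.28 and 105.99 FPKM in CG, LAC and HAC. CG and LAC were level (ratio 1.03, interval 0.989 to 1.08) and HAC was lowest, 1.63-fold below CG (1.55 to 1.71). XR_515260.2 of RPS28, a protein of the small ribosomal subunit, had 91.22, 114.95 and 123.42 FPKM, with CG lowest. XR_519529.2 of NDUFA1, an accessory subunit of mitochondrial complex I, had 44.82, 46.40 and 44.74 FPKM, and every ratio between its libraries had an interval that held 1. XR_001794058.1 of LOC108177235, described by the authors as the proteasome subunit SEM1, was as even, with 84.33, 83.19 and 85.92 FPKM. XR_519192.2 of USMG5 (ATP5MK), a small subunit of the mitochondrial ATP synthase, had 114.06, 129.92 and 91.64 FPKM, and a second transcript of the same gene, XR_001795161.1, had 51.47, 22.34 and 35.92, 2.30-fold lower in LAC than in CG (2.03 to 2.62). The transcripts of GNG5, USMG5, RPS28 and NDUFA1 each started within 115 bases of a coding gene running the other way: SPATA1, PDCD11, NDUFA7 and RNF113A.

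Names of this kind were a small but strongly expressed share of the known transcripts. A gene symbol, from the files or from a match to the RefSeq table of assembly mOryCun1.1, could be given to 132 transcripts of 63 genes, while the other 4159 had a LOC number only. Of the 132, 34.1% reached 1 FPKM, against 10.4% of those with a number only, and they held 26.9%, 19.8% and 20.6% of the known FPKM in CG, LAC and HAC while being 3.08% of the transcripts. In mOryCun1.1, 97 of them (38 genes) were still typed as long non-coding and 29 (23 genes) as protein coding. RefSeq lists GNG5, RPS28, NDUFA1, NDUFB1 and SMIM30, whose human counterparts are coding genes, as non-coding in the rabbit in both versions. The listed genes also held MTLN, which encodes mitoregulin, a microprotein of the mitochondrial inner membrane first annotated as non-coding, and SMIM30, a small membrane protein with the same history. Of 87 symbols of well-known long non-coding RNAs in 7 lists (X inactivation, imprinting, nuclear bodies, snoRNA hosts, miRNA hosts, structural RNAs and others), 0 matched a member, so H19, MALAT1 or GAS5 cannot be followed by name here.

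A second group with high levels was described by the authors as transposon or endogenous virus sequence. It held 25 known transcripts of 20 genes, of which 14 (56.0%) reached 1 FPKM. For CG, LAC and HAC their FPKM summed to 144, 99.98 and 83.95. XR_515178.2 of LOC103345192, described as a mariner transposase, had 67.24, 64.40 and 53.23 FPKM, the highest of the group in every library. XR_518445.1 of LOC103350441, described as similar to the Pol protein of an endogenous retrovirus of group K, had 25.76 FPKM in CG and 1.58 in LAC, with HAC listed at 0, and CG was 16.3-fold above LAC (13.2 to 20.2). Its assembled locus was also lower in the gene table, with 1420 CPM in CG against 186 in LAC. That locus has 4 transcripts, 3 of them assembled. The about 1720 estimated reads of XR_518445.1 in CG are a small part of 1420 CPM in a total of 78461882 counts. The locus value thus mostly reflects other transcripts. XR_001792257.1 of LOC108175509, with a similar description, had 7.55, 0.97 and 3.14 FPKM, and XR_519506.1 of LOC103351842, described as the envelope protein of an endogenous virus, had 23.54, 13.42 and 10.34. CG was the highest library for each of these 4 transcripts. By the size rule described next, 1 of 13 was higher and 3 were lower in LAC than in CG, near the 26.1% called over all long non-coding transcripts. For HAC and CG, 0 of 12 were higher and 5 lower in HAC, where 17.2% were called over all.

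To set the libraries side by side, a transcript was counted when it differed by at least 1 on the log2(FPKM + 1) scale and had at least 1 FPKM in the higher library. In LAC against CG, 412 known transcripts had 1 FPKM or more, and of these 35 were higher and 62 lower (23.5% in all). Over all 10259 long non-coding transcripts the same rule took 26.1%, with 13.7% higher and 12.5% lower. The number called among known transcripts was therefore close to the background, while its split leaned to the lower side. The median difference was 0.10 for the known and 0.32 for all transcripts. Rescaling the libraries so that the table's median difference was 0.02 changed the known split. With scaling by median of ratios it was 23 and 82, by trimmed means of M values 24 and 82, and the known median was -0.29 by either. The sign of the known median thus depends on the scaling, and the known median lay below that of the table under all 3 scalings.

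In HAC against CG, 393 known transcripts had 1 FPKM or more, with 50 higher and 31 lower (20.6%), against 17.2% called over 9414 transcripts (10.2% higher, 7.09% lower). The median difference was 0.07 for known and 0.10 for all, and the known median was 0.01 after scaling by median of ratios and -0.03 by trimmed means, so its sign also depends on the scaling. In HAC against LAC, 85 of 433 were higher and 34 lower (27.5%), against 29.4% over 10661 transcripts (16.8% higher, 12.6% lower), and rescaling by median of ratios gave 105 and 19. The known median was -0.13 as deposited, beside -0.26 for all, and 0.27 after that scaling. These 3 comparisons share their libraries pairwise and are not independent of each other.

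**Figure D1:**
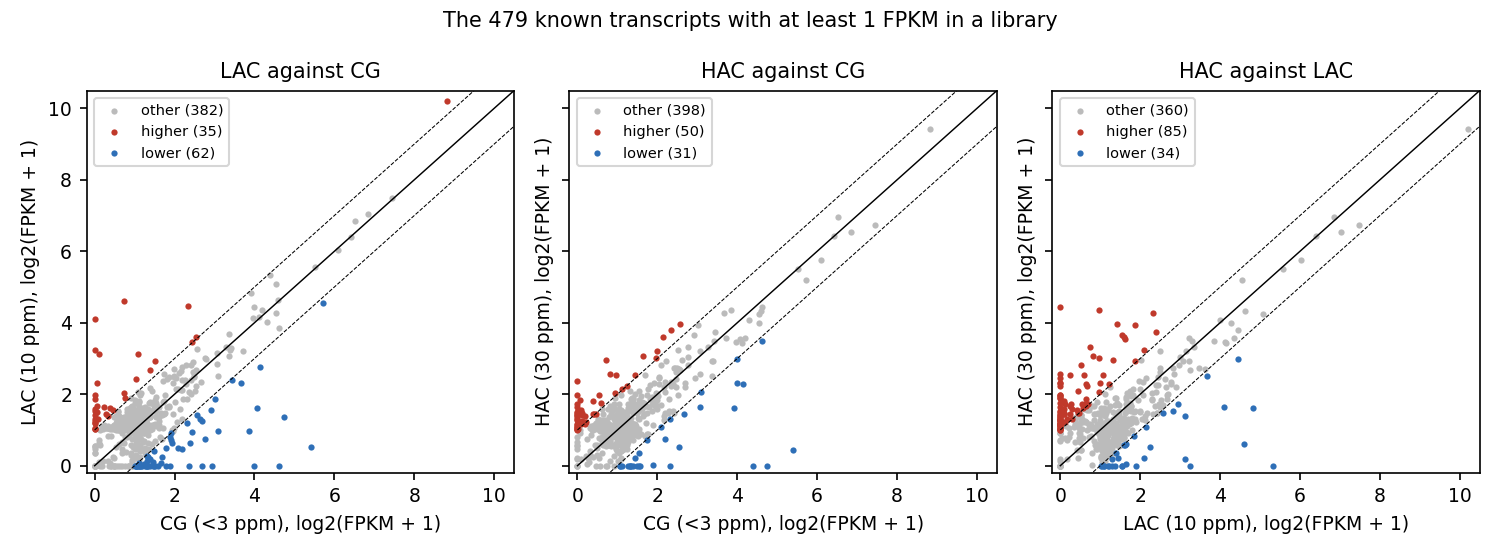
Each point is 1 of the 479 known transcripts with at least 1 FPKM in a library, with log2(FPKM + 1) of both libraries on the axes. Solid lines mark equality and dashed lines a difference of 1, and coloured points meet the size rule (35 higher and 62 lower in LAC against CG).

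By the size rule, some assembled classes also had more lower than higher transcripts in LAC against CG. Assembled junction-sharing transcripts, which share a splice site with a gene, were higher in LAC in 76 cases and lower in 168, and assembled antisense transcripts in 31 and 92. The intronic ones went the other way, with 530 higher and 194 lower. No test of the difference between classes was made, since each rests on the same 3 libraries.

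**Figure D2:**
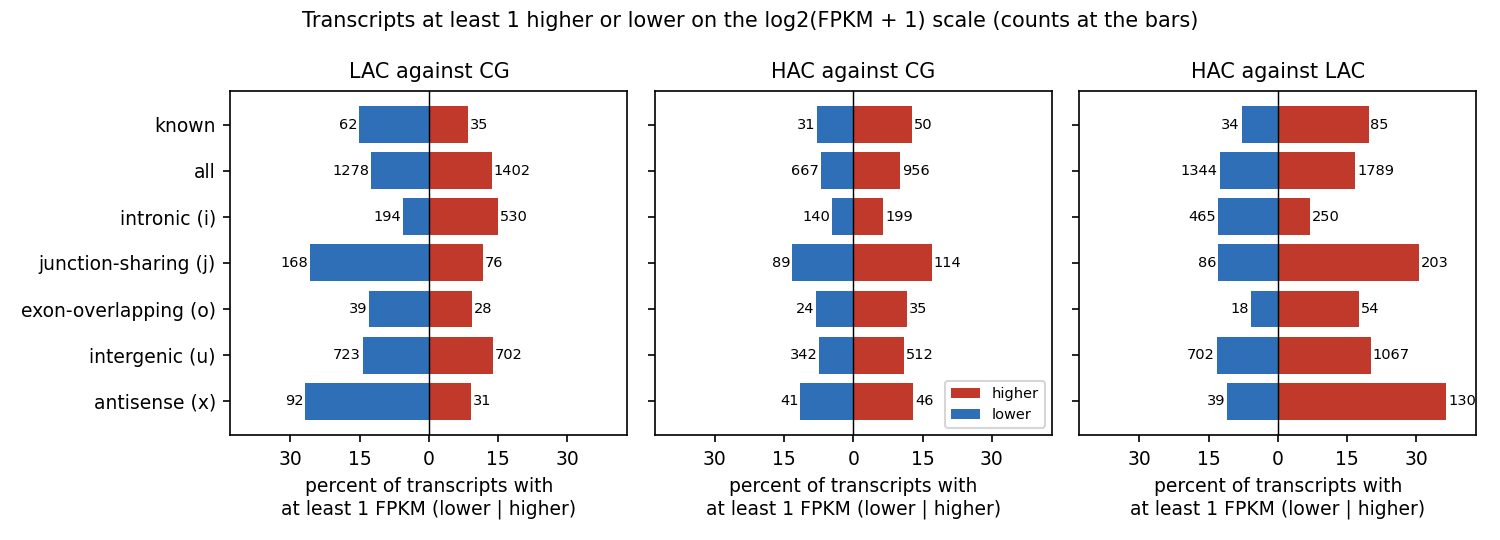
Bars give the percent of transcripts with at least 1 FPKM that were at least 1 higher (right, red) or lower (left, blue) on the log2(FPKM + 1) scale, with counts at the bar ends, for known transcripts, all transcripts and each assembled class. Known transcripts resemble the junction-sharing, exon-overlapping and antisense classes in LAC against CG, with more lower than higher, and differ from the intronic class.

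Direction varied with position as well. Of the 37 known transcripts with 1 FPKM or more in LAC or CG and no coding gene within 100 kb, 7 were higher and 14 lower in LAC (median -0.50). In HAC against LAC 17 of 40 were higher and 2 lower (median 0.58). The 110 that overlapped a coding gene on the other strand included 6 higher ones and 3 lower ones for LAC, around a median of 0.28. Of 134 otherwise within 100 kb of a coding gene 9 were higher and 22 lower (median 0.02). Of 102 divergent transcripts 11 were higher and 20 lower, with a median near 0. In a locus with a messenger RNA, 2 of 16 were higher and 3 lower. Of 13 that overlapped a coding gene on their own strand 0 were higher and 0 lower. Some of these groups are small, and counts near the shares over all transcripts do not set a position apart. No difference between positions was tested.

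Where a known transcript spanned at least 1 between its lowest and highest library, the library farthest from the mean of the other two was taken. Among 188 such transcripts this was LAC in 82 (43.6%, 27 above and 55 below), HAC in 68 (36.2%, 48 above and 20 below) and CG in 38 (20.2%). In the whole table LAC took 52.7% of 4678, HAC 28.6% and CG 18.8%. For the 82 known transcripts with LAC set apart, LAC was thus mostly the lower side, where the whole table had 1396 above and 1067 below. This did not hold for the tested known transcripts at large. As deposited, LAC exceeded CG for 238 of 412 and fell short of it for 173. It exceeded HAC for 241 of 433 and fell short of it for 192. Across the 479 expressed known transcripts the log2(FPKM + 1) values correlated with r = 0.77 between HAC and CG (rho = 0.51), 0.70 between LAC and CG (rho = 0.41) and 0.64 between HAC and LAC (rho = 0.30). These are descriptions across transcripts that share the same libraries, with few reads behind most of them.

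A low LAC and a high HAC were the commonest patterns over the 3 libraries, with close counts. By the size rule, LAC was below both other libraries for 32 transcripts and above both for 13, HAC was above both for 29 and below both for 11, and CG was above both for 16 and below both for 8. In all, 188 transcripts of 157 genes met the rule in at least 1 comparison. Listed at 0 in LAC but with at least 1 FPKM in both others were 11 transcripts, against 3 for CG and 5 for HAC. These patterns were not counted over the whole table, so they do not set the known transcripts apart.

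Several transcripts with 1 to 4 transcripts at their locus had their lowest value in LAC and their highest in HAC. XR_518036.2 of LOC103349936 (PPP1R14C, an inhibitor of protein phosphatase 1) in CG, LAC and HAC had 4.88, 1.67 and 14.65 FPKM. HAC was 3.00-fold above CG (2.66 to 3.39) and 8.77-fold above LAC (7.20 to 10.8), and LAC was 2.92-fold below CG (2.35 to 3.66). Its locus, with 2 transcripts, was also lower in LAC in the gene table, with 18.3 CPM in CG and 3.23 in LAC. XR_001792516.1 of LOC108175843 had 2.13, 0.75 and 7.38 FPKM, and it was the only transcript at its locus. XR_001792563.1 of LOC108175899, which overlaps RNF122 on the other strand and starts 305 bases from its start, had 3.26, 0.42 and 5.99 FPKM. RNF122, an E3 ubiquitin ligase gene, had 67.9 CPM in CG against 14 in LAC. XR_516890.2 of LOC103348533, which starts 168 bases from PLCG2, a phospholipase C gene, and runs away from it, had 5.79, 0.68 and 8.93 FPKM, 8.51-fold lower in LAC than in CG (4.98 to 17.0). PLCG2 had 7.86 CPM in CG and 0.81 in LAC. XR_001792385.1 of TCL1A, a co-activator of the kinase AKT, had 1.51, 0.18 and 2.19 FPKM, 8.39-fold lower in LAC than in CG (4.63 to 17.8). Its locus, with 2 transcripts, had 29.7 CPM in CG and 6.30 in LAC. These 5 transcripts were grouped for this order, with HAC highest and LAC lowest. The size rule was met in all 5 for HAC against LAC. Only XR_518036.2 met it against CG in both LAC and HAC. Oocyte markers could be compared only between CG and LAC, so their level in HAC is unknown. The part of the oocyte share was not tested.

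High values in LAC alone were rarer. XR_001792565.1 of LOC108175901, with 2 exons and 661 bases at NW_003159474.1:133681-134845 on the minus strand, in CG, LAC and HAC had 0.65, 23.25 and 0.53 FPKM. LAC was 35.8-fold above CG (22.9 to 62.0) and 43.9-fold above HAC (26.8 to 83.4), and CG and HAC were level (ratio 0.815, interval 0.371 to 1.71). It was the only transcript of its locus, with 0.47 CPM in CG against 17.3 in LAC. XR_001792833.1 of LOC103346435 had 1.13, 7.73 and 1.63 FPKM, 6.84-fold above CG in LAC (5.05 to 9.66). Its locus, with 7 transcripts, had 14.8 CPM in CG and 59.6 in LAC. Both had their highest value in LAC, with CG and HAC close together.

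A call for a transcript often did not extend to the sum of its gene or locus. Of the 97 known transcripts called in LAC against CG, 66 had a gene sum that was called in the same direction. For the 55 of them at genes with more than 1 known transcript it was 24. In HAC against CG it was 52 of 81 (15 of 44 at such genes) and in HAC against LAC 89 of 119 (26 of 56). Called transcripts that shared their locus with other long non-coding transcripts numbered 69, 61 and 74 in the 3 comparisons, and the locus sum was called in the same direction for 29, 14 and 33 of them. In the gene table's counts 41 of the 97 loci passed a difference of 1 in the same direction, and 84 of 97 had the same sign. The locus counts include the reads of the called transcript, and 22 of the 97 were the only transcript of their locus. The same sign is therefore partly built in. A sum that missed the size does not show a gene without a difference.

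**Figure D3:**
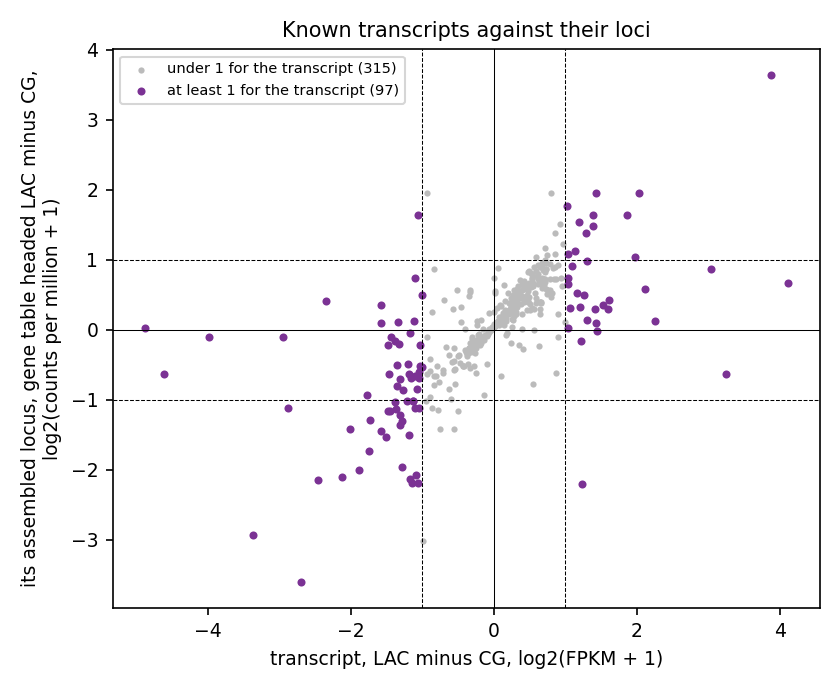
Each point is a known transcript with at least 1 FPKM in CG or LAC (412), with its LAC minus CG difference on the log2(FPKM + 1) scale across and that of its assembled locus in the gene table on the log2(CPM + 1) scale upwards. Most of the 97 transcripts past 1 (purple) keep the sign of their locus, but many lie between the dashed lines at which the locus differs by less than 1.

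At NDUFB1 the FPKM and count values of the locus differed. XR_001795352.1 of LOC108178624, with 2 exons and 200 bases, in CG, LAC and HAC had 41.37, 0.44 and 0.36 FPKM, and its ratio of CG to LAC was 94.0 (35.8 to 514), from about 353 and 3 reads. It starts 35 bases from CPSF2, which runs the other way. Its locus, with 6 transcripts, summed to 55.5, 19.1 and 16.9 FPKM over the long non-coding ones, but had 24.4 and 24.8 CPM in CG and LAC. The locus was thus lower in LAC by FPKM and level by counts.

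CDC42SE2 encodes a small effector of the GTPase CDC42. Its transcript XR_516372.2 was listed at 0 in CG and had 16.25 FPKM in LAC and 2.12 in HAC, while all long non-coding transcripts of the locus summed to 10.8, 16.2 and 15.8 FPKM. XR_516168.2 of MTLN had 0.07, 7.76 and 0.14 FPKM and its other transcript, XR_001792797.1, 3.15, 1.32 and 3.88, so the first led in LAC and the other in CG and HAC. The gene sum of MTLN was 3.22, 9.08 and 4.02 FPKM and its locus had 0.75 and 2.18 CPM in CG and LAC, so LAC was also highest for the gene. RPS28 had a second transcript, XR_001792355.1, with 4.06, 20.99 and 12.82 FPKM, 5.17-fold above CG in LAC (4 to 6.80). Its share of the gene was 4.26% in CG, 15.4% in LAC and 9.41% in HAC, and the main transcript led in every library.

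Across genes with at least 2 known transcripts and a gene sum of at least 5 FPKM in each library, 8 in number, the leading transcript differed between libraries in 2. The median of the largest difference in share was 14.3 percentage points. SMCO4, which encodes a small single-pass membrane protein, changed most. XR_517878.2 had 23.50 and 20.59 FPKM in CG and HAC but 0 in LAC, while XR_001793896.1 was listed at 0 in CG and HAC and had 8.45 in LAC. Its share of the gene was 87.1% in LAC, and that of XR_517878.2 was 81.2% in CG and 89.2% in HAC. Both have 3 exons and the same start and end (NC_013669.1:123364052-123427050, plus strand) and differ in length, 990 and 1016 bases, so reads from the shared exons could be assigned to either. The gene sum was 28.95, 9.70 and 23.09 FPKM, and the locus had 31.1 CPM in CG and 19.6 in LAC.

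SMIM30 (LOC103348677) was the other gene. XR_516981.2 had 14.16, 27.35 and 2.07 FPKM and XR_001793522.1 had 14.82, 0 and 3.97, and the third transcript, XR_001793523.1, had 2.80, 0.98 and 3.99. The shares of XR_516981.2 were 44.6%, 96.5% and 20.6%, and in HAC the other 2 held 39.6% and 39.8%. The gene sum was 31.78 in CG, 28.33 in LAC and 10.03 in HAC, while the whole locus summed to 38.2, 33.4 and 24.1 FPKM, so HAC was lowest either way. LOC103348951, divergent to DNM1L, a GTPase of mitochondrial fission, kept XR_001793687.1 in the lead with 91.0%, 51.0% and 42.7% of the gene, and the level of that transcript was 7.44, 4.68 and 2.15 FPKM.

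**Figure D4:**
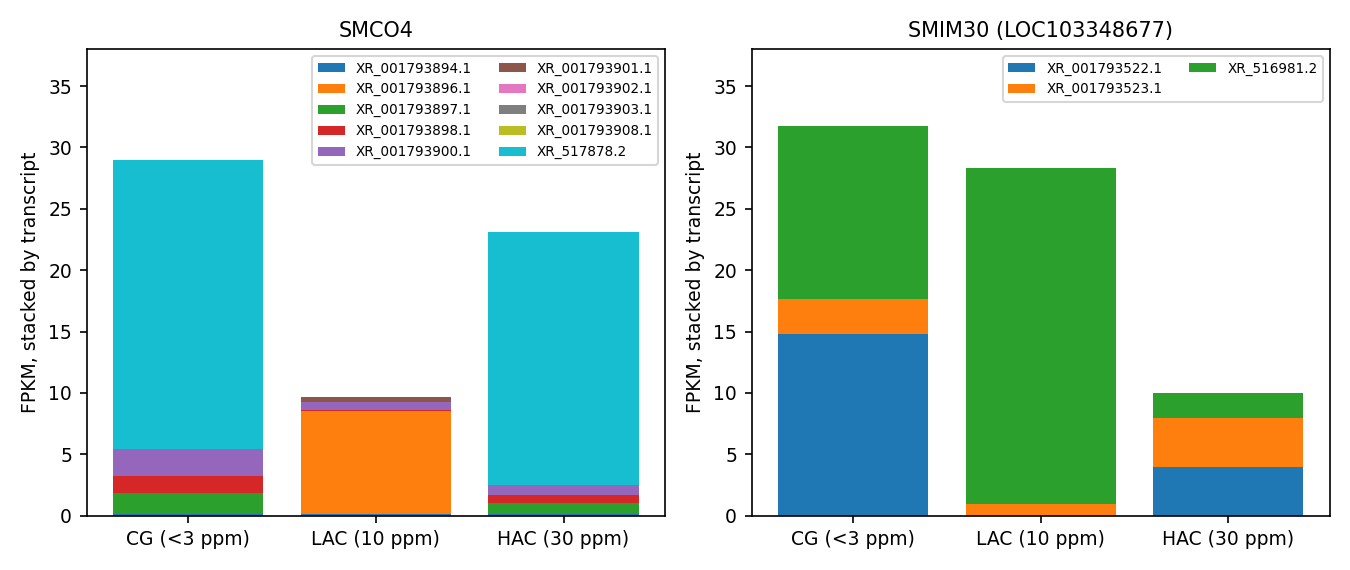
Stacked bars give the FPKM of each known transcript (colour) of SMCO4 (left) and SMIM30 (right) in the 3 libraries. XR_517878.2 makes up most of SMCO4 in CG and HAC and XR_001793896.1 in LAC, and XR_516981.2 makes up 96.5% of SMIM30 in LAC.

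A further transcript was listed at 0 in 1 library. XR_001793796.1 of LOC108177081, which overlaps NKTR on the other strand, had 20.11 FPKM in CG and 39.30 in LAC but 0 in HAC, while its locus, with 2 transcripts, summed to 23.4, 40.5 and 14 FPKM. At another locus transcript and sum went together: XR_515448.2 of LOC103345596, in the locus of a messenger RNA and described by the authors as the primase-polymerase PRIMPOL, had 13.44, 0.97 and 19.49 FPKM, and its locus of 17 transcripts had 158 and 72.2 CPM in CG and LAC. The gene sum there was 13.57, 1.07 and 19.64 FPKM, of which this transcript made up 99.0%, 90.7% and 99.2%. Transcript and gene sum are thus nearly the same value. Transcript, gene and locus were all lower in LAC than in CG.

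Coding neighbours were compared with the known transcripts in LAC and CG, the 2 libraries with a gene table of their own. Over 336 pairs within 100 kb the LAC minus CG differences had a Spearman rho of 0.20, which was 0.30 for the 108 antisense, 0.20 for the 99 divergent, 0.03 for the 116 other and 0.55 for the 13 sense-overlapping pairs. The transcript and its neighbour share both libraries, their scaling and, where they overlap, possibly reads, and the value is a description. A difference of at least 1 was found for both partners in 10 pairs, of which 8 were lower on both sides and 0 higher on both. Of 15009 coding genes tested 12.9% passed this size, 11.0% of the 15009 as lower and 1.89% as higher, so lower neighbours were the common case in the whole gene table. The 8 include XR_518580.2 of LOC100358279, with 1.99 FPKM in CG and 0 in LAC. Another transcript of that gene, XR_001794740.1, was higher in LAC (0.17 and 2.15 FPKM) beside the same neighbour. The gene sum was level, with 2.86 and 2.70 FPKM, and the neighbour was counted more than once among the 10. Besides the pairs of PLCG2 and RNF122 the 8 held XR_001794897.1 of LOC108178199, divergent to the calpain gene CAPN2 at a distance of 230 bases, with 1.5, 0.21 and 2.31 FPKM, and XR_519919.2 of LOC103352454, 56 bases from TSG101, a gene of the ESCRT sorting machinery, with 2.78, 0.88 and 2.47 FPKM. CAPN2 had 147 and 69.9 CPM in CG and LAC, and TSG101 157 and 56.0 CPM. These 2 pairs were picked after their values were seen.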

How the data were processed

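Per the labels' protocols, total RNA of 1 library per group was depleted of ribosomal RNA and sequenced. The tools fastp and HISAT2 and the build OryCun2.0 are named in the submitters' processing notes. The assembler and abundance estimator are not given in the sources used here. The authors deposited FPKM and coverage (a signal of mean read depth) for 15335 long non-coding transcripts in each library, and estimated counts for 39681 loci. The gene table of the HAC file repeats that of LAC, so 2 of 12 columns of per-sample values were not used.

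FPKM values were used as deposited. Differences are on the log2(FPKM + 1) scale, which understates the change of low transcripts. The size rule was applied to the whole table. Folds are ratios of FPKM with exact binomial (Clopper-Pearson) 95% intervals on reads estimated as coverage times length over 150, which cover counting error only. Reads behind the named transcripts differ widely, and intervals widen accordingly. CPM values are estimated counts scaled by trimmed means of M values (30% and 5% trimmed), with at least 10 counts for a coding gene. An estimated count stands for about 75 covered bases, where a read has 150. Symbols came from RefSeq mOryCun1.1, matched by transcript accession without version or by gene name or number (2198 of 4291 matched). No coordinates of that assembly and no sequences were used.

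Named transcripts are the 12 highest by mean FPKM, the 6 largest differences in each direction per comparison with at least 5 FPKM, up to 20 with a symbol in the files, the 6 genes with the largest difference in share, the list members and the 6 highest divergent pairs, and those shown were drawn from these. The transposon, symbol and neighbour examples outside the rule were chosen after their values were seen. The result of 1 further marker list is not reported here. Members and lists were chosen with earlier results of these data known. Alternatives changed the pseudocount, the minimum, the scaling, the size, the detection limit and the distance to neighbours. They also changed the unit, to the gene or to transcripts that were the only long non-coding one of their locus. The size rule was tested on simulated data. Software was SciPy 1.17.1, numpy 2.4.6 and pandas 2.3.3 under Python 3.11.15.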

Additional observations from a re-analysis of the deposited data

How the results depend on the processing

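The counts of known transcripts called depend on the rule. Under every alternative run, lower calls outnumbered higher ones in LAC against CG and higher ones outnumbered lower ones in HAC against LAC. The main rule gave 97, 81 and 119 calls in LAC against CG, HAC against CG and HAC against LAC. A pseudocount of 0.1 FPKM gave 183, 145 and 208, and one of 5 FPKM gave 18, 7 and 19. A minimum of 10 FPKM gave 15, 11 and 15, and a difference of at least 2 gave 18, 8 and 22. Known transcripts that were the only long non-coding one of their locus gave 28, 20 and 45. Such a locus can still hold other transcripts. Sums per gene gave 63 and 52 in the comparisons with CG. In HAC against CG more calls were higher than lower (50 and 31), but fewer with a pseudocount of 5 FPKM (1 and 6), a minimum of 10 FPKM (3 and 8) or a difference of at least 2 (2 and 6). In LAC against CG a pseudocount of 0.1 FPKM gave 91 higher and 92 lower. Dropping the minimum could not change a call, since a difference of at least 1 with a pseudocount of 1 FPKM already needs 1 FPKM. Either rescaling left each total within 1.5 times its value. Median of ratios still took the lower calls in HAC against LAC from 34 to 19, and trimmed means took them to 20. The higher calls in LAC against CG went from 35 to 23 by median of ratios. At 0.1 FPKM 1263, 1243 and 1367 known transcripts were detected in CG, LAC and HAC in place of 291, 315 and 307. With a pseudocount of 0.1 FPKM HAC stood apart in 28.9% of transcripts in place of 36.2%. With a gene sum of at least 1 FPKM the leading transcript differed in 25 of 60 genes in place of 2 of 8. The correlation with neighbours was 0.27 within 10 kb in place of 0.20. Of the 36 differences of named transcripts, 0 changed sign, and 5 fell under 1 with a pseudocount of 5 FPKM. A change of pseudocount or minimum cannot change a sign. The 36 were also picked as the largest differences, so their kept signs are no check of the results.

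No paired analysis was possible because each group has 1 library. No library was left out, for the same reason. Depth limits low values: the median known transcript had a mean of 0.01 FPKM, and 41.37 FPKM of a transcript of 200 bases rested on about 353 reads. What part of a value listed at 0 comes from reads assigned to an overlapping transcript was not tested. The cause of the changes with the rule was not tested.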
